A study of Rattus norvegicus with 56 samples.

Results

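Repeated pramipexole was compared with saline in rats that had neither a nigral lesion nor L-dopa, using 14 of the 56 dorsal striatum samples of the series. The samples were taken by their titles, 7 sham rats treated with saline and conditioned with pramipexole (rats 43 to 49) and 7 sham rats treated and conditioned with saline (rats 50 to 56). All were male Crl:OFA (Sprague Dawley) rats, and all, the saline controls included, had received a stereotaxic injection of an AAV vector that expresses GFP. From 5 weeks after that surgery they were given daily saline for 3 weeks, where other rats of the series were given L-dopa with benserazide. Place conditioning, a test of drug reward, followed. Pramipexole rats received 4 injections of pramipexole (2 mg/kg) in sessions of 40 min that alternated with vehicle sessions, and saline rats received saline in every session. Tissue was taken after a final drug-free test of 20 min, 24 or 48 h after the last pramipexole or saline injection. The labels do not say which rat falls at which time. The wider series crosses the nigral lesion, induced by overexpressed alpha-synuclein, with L-dopa and pramipexole in 8 groups of 7 rats.

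Pramipexole is an agonist of the D2 and D3 dopamine receptors and is used in Parkinson's disease. The dorsal striatum receives dopamine from the substantia nigra and is built mainly of medium spiny neurons, which carry either D1 receptors, coupled to a rise in cyclic AMP, or D2 receptors, coupled to its fall. Immediate early genes such as Fos, Arc and the Egr and Nr4a factors are transcribed within minutes of synaptic activity, calcium entry or cyclic AMP signalling and return to baseline within hours, so their mRNA reflects recent rather than past activity of the tissue.

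Each rat was measured on 1 Affymetrix Rat230_2 array, which reports a log2 signal for each probe set, a group of probes against 1 transcript. The arrays were alike in level, with medians of 5.67 to 5.77, and no 2 of the 14 held identical values. Markers of striatal tissue were high on every array: Penk lay between 12.00 and 12.36, Pde10a between 10.89 and 11.39, Drd1 between 10.49 and 11.22 and Drd2 between 9.31 and 10.01. RNA integrity, read as the signal at the 3' end of control transcripts minus that at the 5' end, averaged 0.93 ± 0.10 in pramipexole rats and 1.01 ± 0.13 in saline rats (SD, n = 7 each; two-sided exact permutation test over 3432 splits, p = 0.228). Of 31042 probe sets other than controls, the 18712 (60.3%) with a mean log2 signal above 5 over the 14 arrays were tested, and these cover 10219 genes with a single symbol. At that floor, the lowest mean tested was 5.0002 and the highest not tested was 4.9998.

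No transcript passed the test for pramipexole against saline in sham rats. With limma, 0 of 18712 probe sets were higher and 0 lower at an adjusted p under 0.05 (0% in each direction), and the smallest adjusted p was 0.380. At an unadjusted p under 0.05 there were 1181 probe sets (6.31%), 651 higher (3.48%) and 530 lower (2.83%). Differences here are pramipexole minus saline on the log2 scale, so that 1 is a doubling. They ranged from -0.98 to 0.91 with a median of 0.0029, 51.2% were above 0, and 60 exceeded 0.5 in size. The 95% interval of the difference lay within 1 in either direction for 99.5% of probe sets and within 0.5 for 91.5%. The median SE of a difference was 0.094. The groups did not overlap for 16 probe sets (0.0855%), 9 higher (0.0481%) and 7 lower (0.0374%) in pramipexole rats.

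The genes of smallest p among those higher in pramipexole rats came from several processes, and each is given as a value that did not pass. Pbrm1, a subunit of a chromatin remodelling complex, had log2 signals of 5.52 to 5.82 (median 5.62) in pramipexole rats, against 4.73 to 5.59 (median 5.27) in saline rats. The difference was 0.38 ± 0.09 (SE, adjusted p = 0.380), and of its other probe sets 4 had the same sign and 1 the opposite. Pak2, a kinase of the cytoskeleton, differed by 0.41 ± 0.10, Ift25, of ciliary transport, by 0.40 ± 0.10 and Sh3bgrl1 by 0.38 ± 0.09, with adjusted p of 0.380 each. The others were Nr4a1 (0.81), Slc16a12, a creatine transporter (0.57), Fosb (0.55), Fsd1l (0.45), Mtf2, a Polycomb partner (0.34) and Iqcb1, a ciliary gene (0.28). Mtf2 was 6.18 to 6.46 in pramipexole rats and 5.86 to 6.16 in saline rats, so its groups did not overlap, but 2 of its other probe sets had the same sign and 2 the opposite. The single other probe set of Ift25 had the opposite sign, as had 1 of the other 3 of Pak2. In all 10 genes each of the 7 pramipexole rats lay above the saline mean, which their choice by smallest p makes likely.

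Among genes lower in pramipexole rats, none passed either. Fam228b had signals of 4.57 to 5.04 (median 4.83) in pramipexole rats and 5.11 to 5.73 (median 5.37) in saline rats, without overlap and close to the floor of the test (difference -0.60 ± 0.17, adjusted p = 0.602). Itsn2, which encodes an endocytic scaffold, differed by -0.26, Rfc1, of the clamp loader of DNA replication, by -0.28, Clpb, a mitochondrial disaggregase, by -0.28 and Zfp428 by -0.25. Chchd3, which shapes mitochondrial cristae (-0.21), Copz1, of the coatomer of Golgi vesicles (-0.19), Sap30l (-0.19), Cfdp1 (-0.18) and Nap1l4, a histone chaperone (-0.17), completed the 10, each with an adjusted p of 0.602. Of these genes, Itsn2 had 1 other probe set of the same sign and 2 of the opposite sign, and Clpb 1 of each. Beside Mtf2 and Fam228b, the non-overlapping probe sets with a symbol were Spindoc (0.34), Bex3 (0.30), Slc25a46 (0.23), Ap1ar (0.17) and Kif21a (0.09), higher, and Abhd17a (-0.14), Snf8 (-0.13), Brox (-0.10), Ostm1 (-0.09) and Mtch1 (-0.08), lower. The other 4 carry no gene symbol. The single other probe set of Slc25a46 had the opposite sign.

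**Figure D1:**
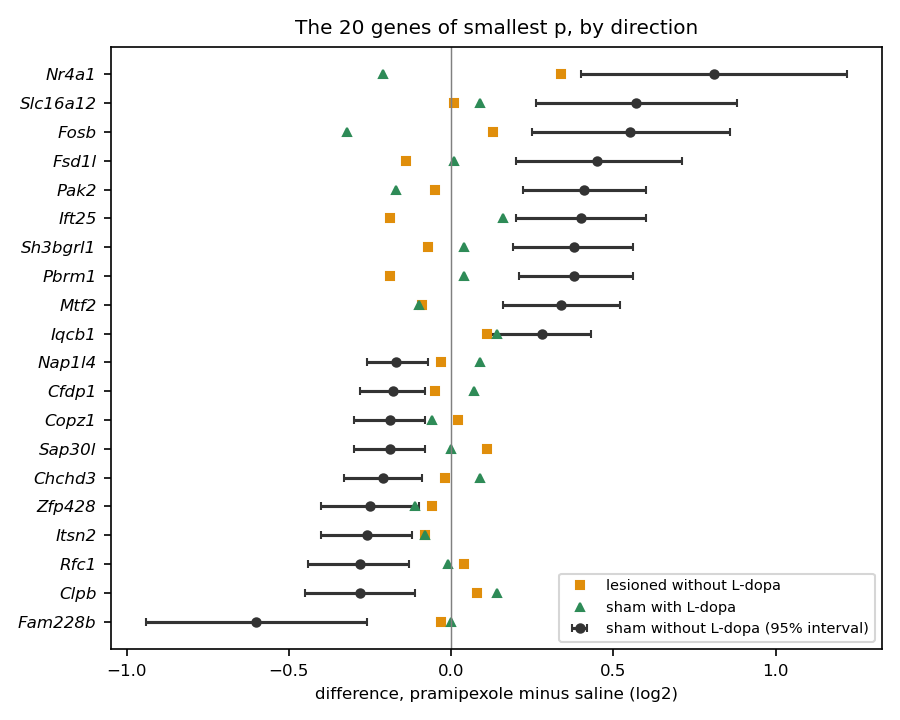
Difference in log2 signal, pramipexole minus saline, of the 20 named genes, the 10 of smallest p in each direction. Black points with bars are sham rats without L-dopa with the 95% interval, orange squares lesioned rats without L-dopa and green triangles sham rats with L-dopa, each from 7 against 7 rats. The black points run from 0.81 for Nr4a1 to -0.60 for Fam228b, and most squares and triangles lie nearer to 0. The genes were chosen by their p in the black comparison, which by itself favours larger black values.

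Of the 31 gene lists examined, that of immediate early genes had the highest median difference. It holds 30 genes, of which 22 were tested. Fosl1, Fosl2, Egr3, Dusp4 and Atf3 were below the signal floor, and Npas4, Btg2 and Nptx2 had no probe set with that symbol alone. Of the 22, 19 were above 0, where 51.2% of all probe sets were, with a median of 0.249 against 0.0029 over all probe sets. None passed (smallest adjusted p = 0.397), and 7 were higher at an unadjusted p under 0.05, where 3.48% of all probe sets were. The list was assembled with results of these data known, and its genes are induced together in the same cells, so these counts describe the list and are no test of it.

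For the genes that lead the list, the promoters are shown because calcium and cyclic AMP reach immediate early genes through short elements there, the cyclic AMP response element TGACGTCA, its half-site TGACG and the CArG box of serum response factor. Promoter windows of 300 bases from RefSeq (build GRCr8) were found for 18 of the 22 genes, not for Fos, Arc, Nr4a3 and Jun. Printed are the 250 bases before the annotated start of Nr4a1 (chr7:134259888-134260137, plus strand), Egr2 (chr20:21054442-21054691, minus strand) and Fosb (chr1:88089185-88089434, minus strand), 5′ to 3′, with matches on either strand in capitals.
Nr4a1: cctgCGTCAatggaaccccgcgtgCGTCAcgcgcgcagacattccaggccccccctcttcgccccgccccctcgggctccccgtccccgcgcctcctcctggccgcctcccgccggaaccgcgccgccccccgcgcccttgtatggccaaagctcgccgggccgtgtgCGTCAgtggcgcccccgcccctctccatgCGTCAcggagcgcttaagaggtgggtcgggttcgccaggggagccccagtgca
Egr2: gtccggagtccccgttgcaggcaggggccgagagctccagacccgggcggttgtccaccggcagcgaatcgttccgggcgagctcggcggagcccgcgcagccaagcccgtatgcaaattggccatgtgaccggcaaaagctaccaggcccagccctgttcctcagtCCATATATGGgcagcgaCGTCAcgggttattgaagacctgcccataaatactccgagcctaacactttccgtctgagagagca
Fosb: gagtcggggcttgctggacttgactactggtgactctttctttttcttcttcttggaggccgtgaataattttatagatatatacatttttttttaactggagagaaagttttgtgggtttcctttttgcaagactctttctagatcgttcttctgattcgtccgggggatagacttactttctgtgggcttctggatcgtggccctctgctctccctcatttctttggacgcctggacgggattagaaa
The Nr4a1 window holds 4 half-sites, the Egr2 window 1 half-site and 1 CArG box, and the Fosb window none of these. Over the 18 windows, the half-site was in 11, the full element, which contains the half-site, in 3, and the CArG box in 3. Of 33469 rat promoter windows of this length, 21.2% hold the half-site, 1.83% the full element and 1.64% the CArG box. The AP-1 motif TGANTCA was in 0 of the 18 windows and in 7.33% of all. A match says only that the letters occur in the window, and its absence says nothing of sequence outside the window. The windows rest on the annotated start, which was not checked against other evidence.

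The 3 largest differences were those of the transcription factors Fos, Egr2 and Nr4a1. Fos, which with Jun proteins forms the AP-1 factor, had log2 signals of 7.09 to 8.95 (median 8.40) in pramipexole rats, against 6.22 to 9.21 (median 7.09) in saline rats. The pramipexole values all lay within the saline range, whose highest value was that of rat 53, and the difference was 0.89 ± 0.34 (SE, unadjusted p = 0.0117, adjusted p = 0.692). Egr2, a zinc finger factor, was 7.08 to 8.53 (median 7.91) in pramipexole rats and 6.58 to 8.22 (median 6.80) in saline rats. All 7 pramipexole rats lay above the saline mean, and the difference was 0.82 ± 0.31 (adjusted p = 0.692). Nr4a1, an orphan nuclear receptor enriched in striatum, was 7.11 to 8.17 (median 7.70) in pramipexole rats and 6.24 to 7.59 (median 6.68) in saline rats. Its difference of 0.81 ± 0.20, a ratio of 1.76, with a 95% interval of 0.40 to 1.22 on the log2 scale, had the smallest adjusted p of the list. Again all 7 pramipexole rats exceeded the saline mean, yet the lowest of them lay below the highest saline rats. Nr4a3, of the same receptor family, was 6.24 to 8.35 (median 7.20) in pramipexole rats and 6.08 to 7.69 (median 6.67) in saline rats (0.63 ± 0.24, adjusted p = 0.692), and its other 2 probe sets had the same sign.

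Fosb, whose truncated protein product accumulates in striatum under repeated dopaminergic drugs, was low in all rats. It was 5.01 to 5.78 (median 5.64) in pramipexole rats and 4.70 to 5.31 (median 4.98) in saline rats, and apart from pramipexole rat 49 every pramipexole value exceeded every saline value. The difference was 0.55 ± 0.15 (adjusted p = 0.602). Arc, a synaptic protein whose mRNA travels to active dendrites, was 6.67 to 8.19 (median 7.60) in pramipexole rats and 5.76 to 8.12 (median 6.59) in saline rats, with 6 of 7 pramipexole rats above the saline mean (0.76 ± 0.26, adjusted p = 0.647). Sik1, a kinase that restrains cyclic AMP-driven transcription, was 5.85 to 6.46 (median 6.08) in pramipexole rats, against 5.39 to 6.21 (median 5.86) in saline rats (0.25 ± 0.12, unadjusted p = 0.0467, adjusted p = 0.786).

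**Figure D2:**
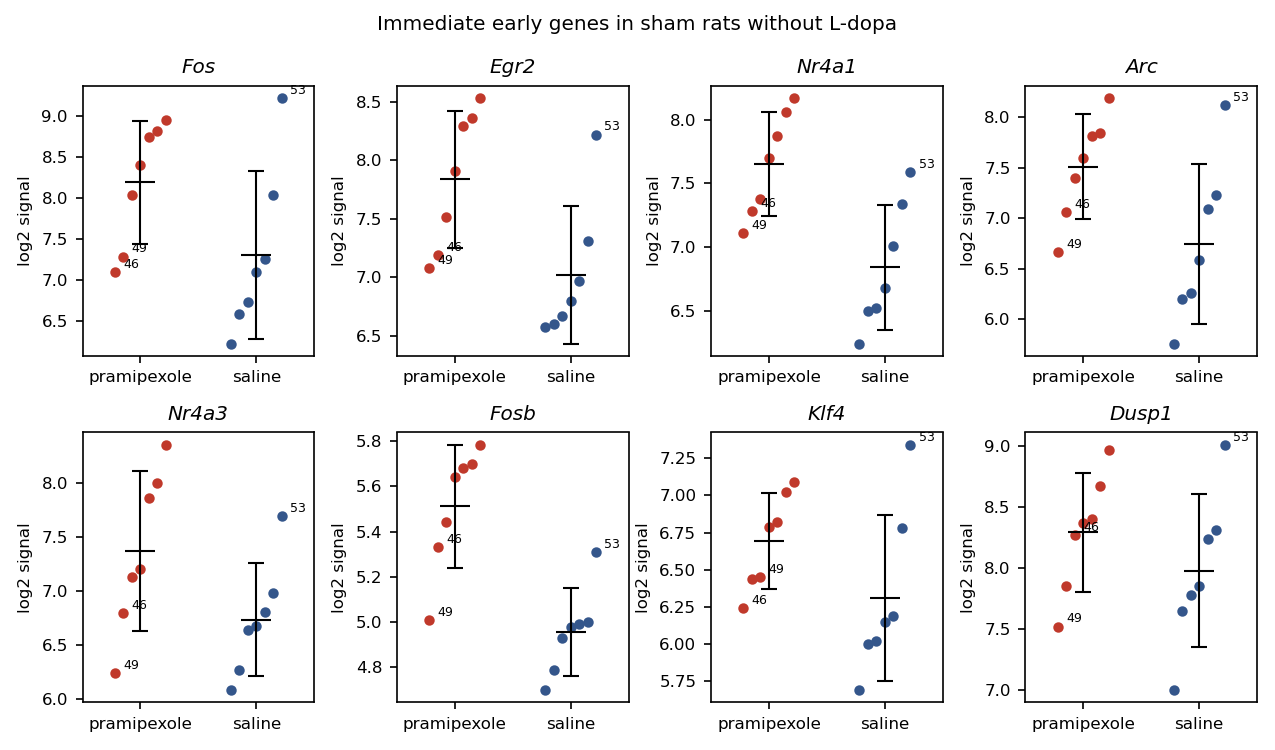
Log2 signal of 8 immediate early genes in each sham rat without L-dopa, pramipexole in red and saline in blue, with group mean and SD as black bars (n = 7 each). Saline rat 53 is the highest saline rat in all 8 panels and pramipexole rat 49 or 46 the lowest pramipexole rat.

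The other members did not reach an unadjusted p of 0.05 with the probe set of highest signal. Klf4 (0.38), Junb (0.30), Egr1 (0.26), Ier5 (0.25), Egr4 (0.22) and Ier2 (0.17) were above 0, as were Per1, also a clock gene (0.24), and the phosphatases that end MAP kinase signalling, Dusp1 (0.32), Dusp5 (0.25) and Dusp6 (0.17). Egr1, the most widely used marker of the family, was 10.77 to 11.49 (median 11.27) in pramipexole rats and 10.60 to 11.40 (median 10.97) in saline rats. Jun (-0.01), Jund (-0.01), Nr4a2 (0.00) and Bdnf, a neurotrophin gene (0.00), showed no difference in mean. The interval for Bdnf was wide, from -0.46 to 0.46, while that for Jund was -0.15 to 0.13. Homer1, a postsynaptic scaffold gene, depended on the probe set: that of highest signal gave -0.02 ± 0.08, and the other 4 gave 0.08, 0.13, 0.18 and 0.78, the last with an SE of 0.35 and an unadjusted p of 0.0289. Which Homer1 transcripts these probe sets detect is not annotated in the files.

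The immediate early signal varied widely within both groups, and their ranges overlapped. A score for each rat, the mean of the 22 genes after centring each on its mean over the 14 rats, had a median of 0.325 in pramipexole rats (-0.328 to 0.446) and of -0.239 in saline rats (-0.411 to 0.408). Pramipexole rats 43, 44, 45 and 47 scored 0.325 to 0.446, rats 46 and 48 scored -0.108 and 0.055, and rat 49 scored -0.328, within the range of the saline rats. Saline rat 53 scored 0.408, and the other 6 saline rats scored at or below -0.055. Rat 53 was among the 3 highest of the 14 for 9 of the 22 genes, and rat 49 among the 3 lowest for 9. Without rat 53, 14 of 22 genes were higher at an unadjusted p under 0.05 (3.23% of all probe sets), without rat 49 there were 12 (4.04%), and without rat 45 there were 5 (2.97%). The number of members above 0 stayed between 17 and 22 and the median between 0.199 and 0.329 over the 14 leave-one-out fits, and 0 members passed in any of them.

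Rat 49 also had the lowest score in markers of cerebral cortex, the tissue that lies next to the striatum. Any part of cortical tissue in the immediate early scores was not tested beyond the covariate fit below. Of 21 cortical markers 15 were tested, 4 were below the signal floor and 2 had no probe set of their own. Their score was -0.708 in rat 49, which was the lowest of the 14 rats for 11 of the 15, and 0.491 in pramipexole rat 43, the highest for 8. The other pramipexole rats lay between -0.107 and 0.214, and saline rats between -0.442 and 0.195. The summed log2 signal of the 15 ranged from 111 to 129 in pramipexole rats and from 115 to 124 in saline rats. With this score as a covariate in the fit, 17 of the 22 immediate early genes were above 0, with a median of 0.251 and 7 at an unadjusted p under 0.05. Of all probe sets in that fit, 3.97% were higher and 3.27% lower at that threshold. Among the cortical markers themselves 9 of 15 were above 0 (median 0.005), with Ccn2, a marker of the deepest cortical layer, at 0.29 ± 0.11 (adjusted p = 0.687) and Neurod2, a factor of cortical projection neurons, at 0.30 ± 0.24.

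Genes that define the target neurons of dopamine differed little. Drd1, the D1 receptor, was 10.61 to 11.22 (median 10.79) in pramipexole rats and 10.49 to 11.06 (median 10.80) in saline rats, a difference of 0.01 with a 95% interval of -0.21 to 0.23. Drd2, the receptor that pramipexole acts on, was 9.31 to 9.91 (median 9.48) in pramipexole rats and 9.48 to 10.01 (median 9.75) in saline rats, with a difference of -0.15 and an interval of -0.40 to 0.11. Drd3, the other receptor of pramipexole, lay below the signal floor in both groups, at 3.53 ± 0.59 in pramipexole rats and 3.67 ± 0.60 in saline rats, and was not tested.

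None of the 3 spiny neuron peptides passed the test. Penk, the enkephalin precursor of D2 neurons, was 12.00 to 12.30 (median 12.20) in pramipexole rats and 12.00 to 12.36 (median 12.13) in saline rats, with a difference of 0.00 and an interval of -0.14 to 0.15. Tac1, the substance P precursor of D1 neurons, differed by 0.01 (-0.30 to 0.33). Pdyn, the dynorphin precursor of D1 neurons, was 9.97 to 10.42 (median 10.13) in pramipexole rats and 9.72 to 10.29 (median 9.88) in saline rats. All 7 pramipexole rats lay above the saline mean of Pdyn, and the difference was 0.19 ± 0.13 (adjusted p = 0.867). Of the D1 list 6 of 11 members were above 0 (median 0.006), with Zfp521, a zinc finger factor, at -0.24 ± 0.09 (adjusted p = 0.687). Of the D2 list 1 of 6 was above 0 (median -0.067), and of the genes of spiny neuron identity 6 of 15 (median -0.014), with Bcl11b, a factor of their development, at 0.11 ± 0.06 and Gpr155 at -0.17. The other 2 probe sets of Bcl11b had the opposite sign. Leaving out 1 rat moved the D1 count between 2 and 7 of 11 (median -0.047 to 0.046) and the spiny identity count between 2 and 10 of 15 (median -0.063 to 0.018).

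Downstream of the receptors, 18 of 29 dopamine signalling genes were above 0 (median 0.015). Without pramipexole rat 44, which had the highest score of this list, 12 of 29 were (median -0.015). Rgs2, a brake on G protein signalling, was 10.21 to 10.69 (median 10.38) in pramipexole rats and 9.69 to 10.37 (median 10.08) in saline rats, with all 7 pramipexole rats above the saline mean (0.31 ± 0.12, unadjusted p = 0.0116, adjusted p = 0.692). Grk2, a kinase that desensitises receptors, differed by 0.21 ± 0.11. Of 14 genes of dopamine terminals and synthesis, 7 were tested and 5 of those were above 0 (median 0.004). Ddc, the second enzyme of dopamine synthesis, was at 0.15 ± 0.11, and Maoa and Maob, which degrade dopamine, were at 0.00 and 0.02. Th, the rate-limiting enzyme of dopamine synthesis, averaged 4.47 ± 0.34 in pramipexole rats and 3.85 ± 0.62 in saline rats and was not tested. Ret, the receptor of glial-derived neurotrophic factor, was 4.17 to 5.95 (median 4.94) in pramipexole rats and 4.97 to 6.55 (median 5.67) in saline rats (-0.57 ± 0.22, adjusted p = 0.698). Aldh1a1, of dopamine neurons, was at -0.19 ± 0.13, the other member below 0. Without rat 45, 3 of 7 were above 0 (median -0.008).

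Among neuropeptides and their receptors 16 of 22 genes were above 0 (median 0.058). Oprl1, the nociceptin receptor, was 5.41 to 6.04 (median 5.69) in pramipexole rats and 5.03 to 5.81 (median 5.23) in saline rats (0.38 ± 0.18, adjusted p = 0.779). Cartpt, the precursor of a psychostimulant-responsive peptide, differed by 0.49 ± 0.26, in a saline group where rat 50 lay far below the others. Pramipexole rat 49 had the lowest score of this list, -0.245. Without that rat 15 of 22 were above 0, the median was 0.109 and 4 members were higher at an unadjusted p under 0.05, as were 4.04% of all probe sets. With all rats 1 of 22 was, near the 3.48% of all probe sets. Of the genes linked to L-dopa-induced dyskinesia 10 of 15 were above 0 (median 0.051), and the 2 at an unadjusted p under 0.05 were Arc and Fosb, which the immediate early list also holds.

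No synaptic gene passed the test. Glutamate receptor and postsynaptic genes were above 0 in 15 of 31 (median -0.001), and the smallest p were those of the NMDA receptor subunit Grin2b (0.16 ± 0.09) and the kainate receptor subunit Grik5 (0.18 ± 0.11). Homer2, a postsynaptic scaffold gene, had the largest difference, 0.30 ± 0.35. GABA genes were above 0 in 5 of 14 (median -0.018), although the receptor subunits Gabra4 and Gabra2 were each at 0.35, with unadjusted p of 0.0296 and 0.0357. Gabra2 was 7.72 to 8.80 (median 8.24) in pramipexole rats and 7.63 to 8.05 (median 7.87) in saline rats. For vesicle release the count was 13 of 22 (median 0.030), with the active zone gene Pclo at 0.32 ± 0.12 and the complexin gene Cplx1 at -0.09 ± 0.05. For potassium channels it was 12 of 20 (median 0.041), with Kcnip2 at -0.18 and Kcnk2 at -0.16, and for endocannabinoid and cyclic nucleotide genes 10 of 16 (median 0.003), with the cannabinoid receptor gene Cnr1 at -0.20 ± 0.12 and the phosphodiesterase gene Pde4d at 0.14. Neurotrophin and growth factor genes were above 0 in 8 of 17 (median -0.010), with Vegfa at -0.18 ± 0.08 (adjusted p = 0.728).

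Metabolic, clock and stress lists showed small medians. Oxidative phosphorylation genes were above 0 in 11 of 39 (median -0.035), with Uqcrq, of complex III, at -0.18 ± 0.06 (adjusted p = 0.664) and Ndufv1, of complex I, at -0.08 ± 0.04. Pramipexole rat 45 had the lowest signal of the 14 for 19 of the 39, and without it 15 of 39 were above 0 (median -0.015). Circadian clock genes were above 0 in 13 of 20 (median 0.041), with Tef at -0.09 beside Per1. Cholesterol synthesis genes were above 0 in 9 of 15 (median 0.019), with Lss at -0.26 ± 0.09 and Idi1 at 0.16 ± 0.07. The unfolded protein and heat shock list was above 0 in 10 of 26 (median -0.035), with Pdia3, a folding enzyme, at -0.11 ± 0.06. Its member of smallest p was Hspb1, a small heat shock protein, at 5.48 to 6.37 (median 5.98) in pramipexole rats and 6.07 to 7.61 (median 6.33) in saline rats. The difference was -0.61 ± 0.19 (unadjusted p = 0.00279, adjusted p = 0.602), and the highest value was saline rat 54.

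Saline rat 54 stood high in several stress and immune lists, and in 2 of them, the glucocorticoid and microglial lists, the median turned sign without it. Glucocorticoid-responsive genes were above 0 in 4 of 18 (median -0.068), with Fkbp5, which tempers the glucocorticoid receptor, at -0.09 ± 0.09. Rat 54 had the highest signal of the 14 rats for 12 of the 18 and a score of 0.66, where the other saline rats lay between -0.212 and 0.150 and pramipexole rats between -0.172 and 0.114. Without rat 54, 12 of the 18 were above 0 and the median was 0.042. Microglial markers were above 0 in 5 of 14 (median -0.073), and rat 54 was highest for 9 of them, with a score of 0.455. Without it 11 of 14 were above 0 (median 0.038). Cx3cr1, the fractalkine receptor of microglia (0.28 ± 0.17), and Tmem119, a microglial membrane protein (0.14 ± 0.19), were above 0 with all rats. Interferon and antigen presentation genes were above 0 in 8 of 17 (median -0.016), with rat 54 highest for 10. Without rat 54 the count was the same and the median -0.010, while without rat 49 it was 10 of 17 (median 0.030). In that list Tap2, a peptide transporter, was at -0.26 ± 0.15 and Mx2, an antiviral GTPase, at 0.19 ± 0.16.

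Markers of glia and vessels lay mostly below 0 in pramipexole rats. In whole tissue, fewer cells of a type and less RNA per cell cannot be told apart. Astrocyte markers were above 0 in 2 of 15 (median -0.082) and between 0 and 3 of 15 when each rat was left out. Aldh1l1, a folate enzyme of astrocytes, was 6.60 to 7.05 (median 6.90) in pramipexole rats and 6.92 to 7.32 (median 7.17) in saline rats (-0.29 ± 0.09, unadjusted p = 0.0017, adjusted p = 0.602), and Gjb6, a gap junction gene, was at -0.28 ± 0.13. Oligodendrocyte markers were above 0 in 2 of 16 (median -0.113), with Olig1 at -0.19 ± 0.10 and Cldn11, of the myelin sheath, at -0.15 ± 0.08. None of the 16 reached an unadjusted p of 0.05 with all rats, where 2.83% of all probe sets were lower at that threshold. Without rat 49, 5 were lower, as were 3.86% of all probe sets. That rat's oligodendrocyte score of 0.207 was the highest of the pramipexole rats. Endothelial and mural markers were above 0 in 4 of 20 (median -0.058), and the smallest p were those of the potassium channel genes of pericytes, Abcc9 at -0.27 ± 0.10 (adjusted p = 0.691) and Kcnj8 at -0.32 ± 0.16. Interneuron markers were above 0 in 3 of 7 (median -0.042), with Sst at 0.20 and Chat, of cholinergic cells, at -0.21. Without rat 49, 4 of 7 were above 0 and the median was 0.132. Over the 31 lists, leaving out 1 rat turned the sign of the median in 15. Beside those named above, these were the glutamate, endocannabinoid, neurotrophin, vesicle release, cholesterol, leptomeningeal and cortical lists, all with medians within 0.054 of 0.

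**Figure D3:**
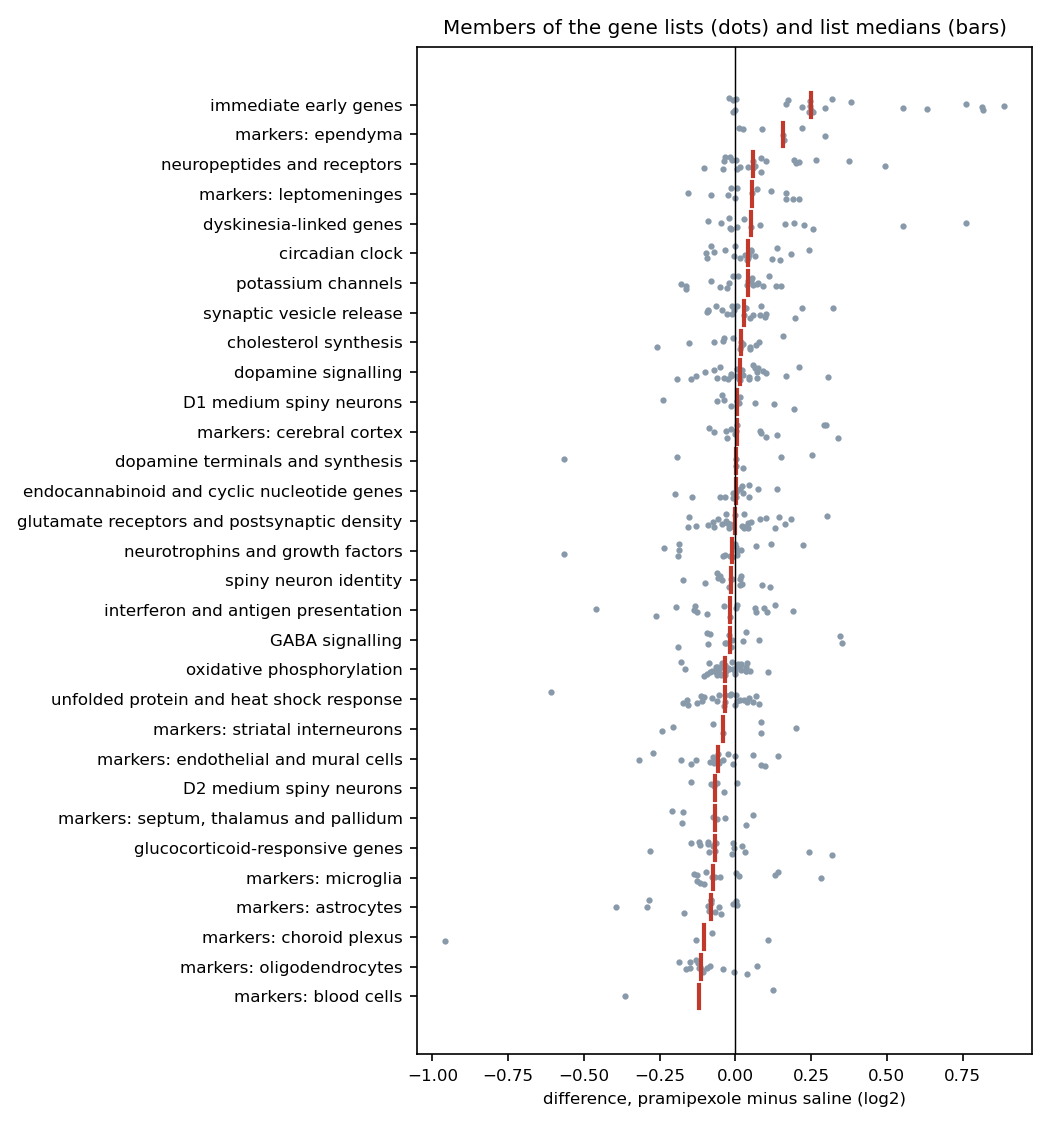
Difference in log2 signal, pramipexole minus saline, in sham rats without L-dopa for each tested member (dots) of the 31 gene lists, with the list median as a red bar. The median of immediate early genes is 0.249 and that of oligodendrocyte markers -0.113, and no member passed the test.

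Markers of tissues that border the striatum varied between rats of both groups. Of 15 choroid plexus markers only 4 were above the floor, and Ttr, the transthyretin gene that marks this tissue, ranged from 5.03 to 7.61 (median 5.70) in pramipexole rats and from 5.81 to 7.73 (median 7.31) in saline rats. Its difference of -0.96 had an SE of 0.68. Pramipexole rats 48 and 49 had Ttr signals of 7.55 and 7.61, and the other 5 pramipexole rats lay at or below 5.76. Enpp2, of the same list, was at -0.13. The ependymal markers were all above 0 (7 of 7, median 0.158), with unadjusted p of 0.304 or more. Of these, Ak7, of motile cilia, was at 0.30 ± 0.29 and Tmem212 at 0.22 ± 0.21. Rat 47 was highest for 4 of the 7 and saline rat 50 lowest for 5. Leptomeningeal markers were above 0 in 8 of 13 (median 0.054), with Lum at 0.19 and Col3a1 at 0.17, and markers of septum, thalamus and pallidum in 2 of 8 (median -0.067), with Tcf7l2 at -0.18 ± 0.08 and Lef1 at -0.17. Of 16 blood cell markers 2 were tested, Hbb, a globin gene (-0.36 ± 0.17, adjusted p = 0.776), and Pf4, of platelets (0.12 ± 0.16). The part of these tissues in the results above was not tested beyond the fits with cortical, choroid plexus and blood scores as covariates.

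**Figure D4:**
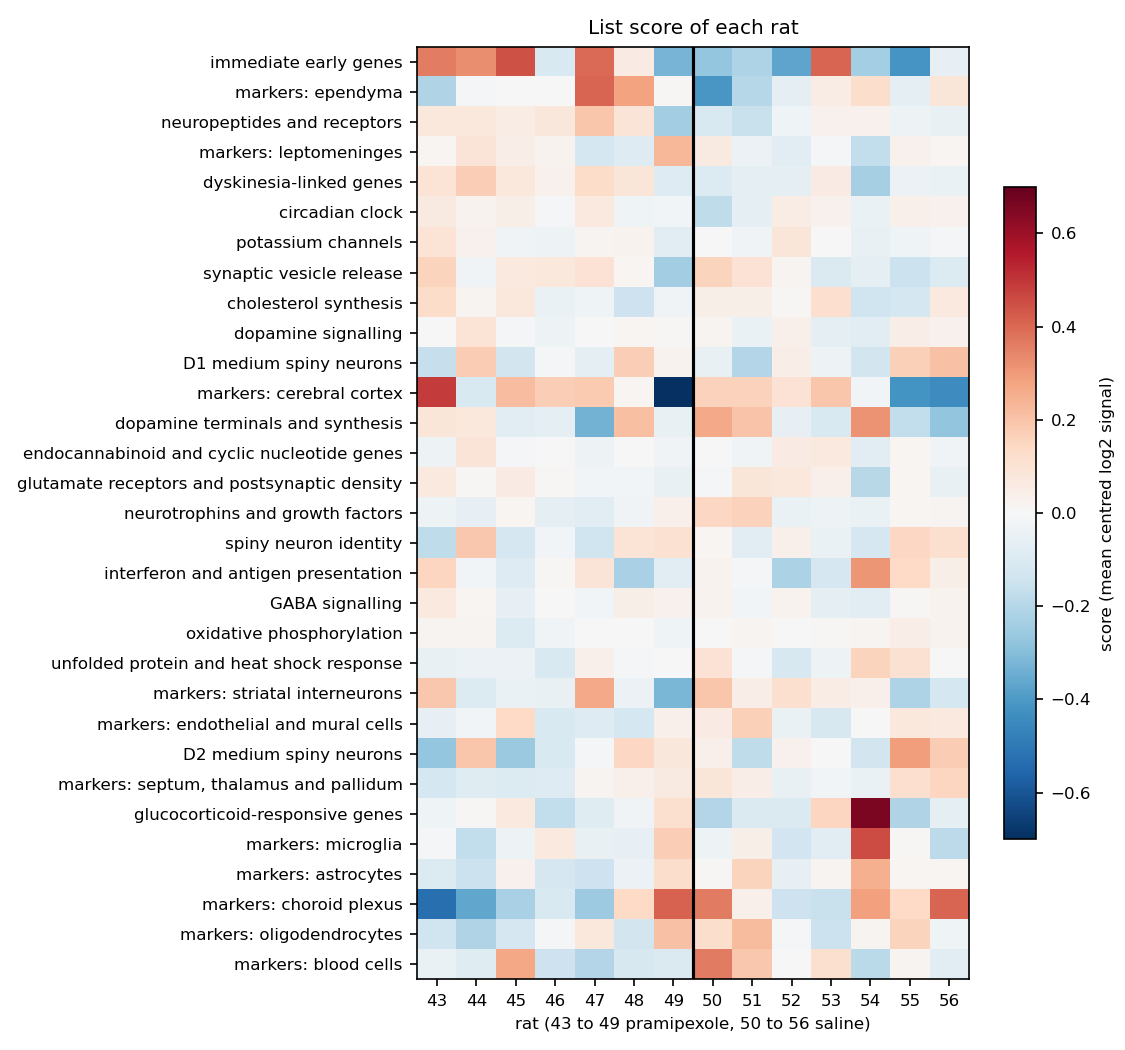
Score of each gene list (rows, ordered by the list median) in each rat (columns, 43 to 49 pramipexole and 50 to 56 saline), as the mean of its members' log2 signals after centring on the 14 rats, from blue (low) to red (high). Rat 49 has a cortical score of -0.708, and rat 54 a glucocorticoid score of 0.66.

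Several of the genes with the largest spread within groups were high or low in a few rats only. Lysmd4 was at 3.15 in pramipexole rats 43 and 49 and between 6.59 and 7.04 in the other 5, against 6.06 to 6.96 in saline rats, and its other 2 probe sets had the opposite sign of difference. Ramac was at 4.15 and 4.06 in the same pramipexole rats 43 and 49 and at 3.85 and 3.94 in saline rats 51 and 52, and at 6.61 or more in the other 10 rats. Car3, an enzyme abundant in fat and muscle, was at 7.56 in pramipexole rat 49, 8.95 in saline rat 50 and 7.87 in saline rat 52, and at 5.16 or less elsewhere. Sncg, a synuclein of dopamine and other neurons, ran from 5.49 to 8.12 in pramipexole rats and from 5.59 to 7.86 in saline rats. Fcrl2, Rsph10b, Msmp, Setd1b, Cmbl and Plekhh1 complete the 10 genes of largest within-group SD, with differences from -0.89 for Fcrl2 to 0.44 for Msmp and adjusted p of 0.927 or more.

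The same drug was given to lesioned rats without L-dopa and to sham rats with L-dopa, 7 against 7 in each case, and neither comparison shares a rat with the one above. Across the 18712 probe sets the measured differences showed almost no correlation. Pearson's r was 0.075 with lesioned rats and -0.034 with sham rats given L-dopa, 50.6% and 47.9% of probe sets had the same sign, and Spearman's rho was 0.040 and -0.041. These are descriptions across genes, which are not independent. In sham rats without L-dopa the median size of a difference was 0.065, below the median SE of 0.094. Correlations near 0 therefore cannot tell whether the responses to the drug differ. In lesioned rats 0 probe sets passed by limma, with 7.22% at an unadjusted p under 0.05 (4.28% higher and 2.94% lower). In sham rats with L-dopa 7 rose and 1 fell (0.0374% and 0.00534%), with 5.99% at an unadjusted p under 0.05 (2.31% higher and 3.68% lower). The pramipexole rats of that comparison all lie among samples 1 to 37 and 5 of its 7 saline rats among samples 38 to 56. Drug and sample range therefore cannot be fully told apart there.

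A test of the difference between comparisons found none that passed. Subtracting the difference in lesioned rats, 0 probe sets were called (0% in each direction, 1258 or 6.72% at an unadjusted p under 0.05, 3.35% higher and 3.37% lower, smallest adjusted p = 0.119). Nasp, a histone chaperone, differed by 0.21 in sham rats and -0.49 in lesioned rats (adjusted p of the difference 0.119), and Pbrm1 by 0.38 and -0.19 (adjusted p = 0.180). Bpnt2, Cpeb4, which controls the translation of mRNA, and Ift25 had the next smallest p among those higher in sham rats. In the other direction, Mfhas1, a regulator of innate immune signalling, differed by -0.46 in sham rats and 1.38 in lesioned rats (-1.84, adjusted p = 0.119), followed by Tle2, Sap30l, Kiaa1549 and Txndc11.

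Subtracting the difference in sham rats with L-dopa, 0 probe sets were called (0% in each direction, 1270 or 6.79% at an unadjusted p under 0.05, smallest adjusted p = 0.1). Pak2, Brwd1, Fosb, Nadk and Cdc27 had the smallest p among those higher without L-dopa, with 0.41, 0.33, 0.55, 0.20 and 0.40 without it, against -0.17, -0.24, -0.32, -0.57 and -0.29 with it. The single other probe set of Brwd1 had the opposite sign of difference without L-dopa. Among those lower, Cox5a, of complex IV, was at -0.17 without L-dopa and 0.58 with it, and Myh1, a myosin gene, at 0.00 and 0.76. Hibadh, Mesd and Wdtc1 completed that side. With the sample range as a term in the fit the count at an unadjusted p under 0.05 was 735, the Cox5a difference was -0.203 ± 0.153 and the Myh1 difference -0.074 ± 0.163, each with an adjusted p of 1. Without that term they were -0.746 and -0.759.

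Immediate early genes were above 0 in 20 of 22 in lesioned rats (median 0.182, none at an unadjusted p under 0.05) and in 6 of 22 in sham rats with L-dopa (median -0.114). Of all probe sets, 53.5% and 46.9% were above 0 in these comparisons. With the blood score as a covariate, the count in sham rats with L-dopa was 10 of 22 (median -0.032). Fos was at 0.89 without lesion or L-dopa, at 0.49 in lesioned rats and at -0.33 in sham rats with L-dopa, and Nr4a1 at 0.81, 0.34 and -0.21. The difference from lesioned rats reached an unadjusted p of 0.05 in 0 of the 22, where 6.72% of all probe sets did. The difference from sham rats with L-dopa did so for 10 members that were higher without L-dopa, where 4.08% of all probe sets were, and for Jund, which was lower, as 2.71% were. Jund, a Jun family factor, rose in sham rats with L-dopa (0.34 ± 0.07, adjusted p = 0.027), a call that ended with the sample range as a term (adjusted p = 1). It also ended with no filter, quantile normalization, array weights and the RNA quality covariate. In these fits the smallest adjusted p of the list were 0.0508, 0.0568, 0.0698 and 0.0614. The largest differences from sham rats with L-dopa were Egr2 (1.27 ± 0.44), Fos (1.21 ± 0.48), Nr4a1 (1.02 ± 0.29), Arc (0.99 ± 0.37) and Fosb (0.88 ± 0.22, adjusted p = 0.292). With the sample range as a term, 20 of these 22 differences were above 0 with a median of 0.321, and the smallest adjusted p was 1. In that fit 1 of the 22 reached an unadjusted p of 0.05, as did 735 of all 18712 probe sets.

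**Figure D5:**
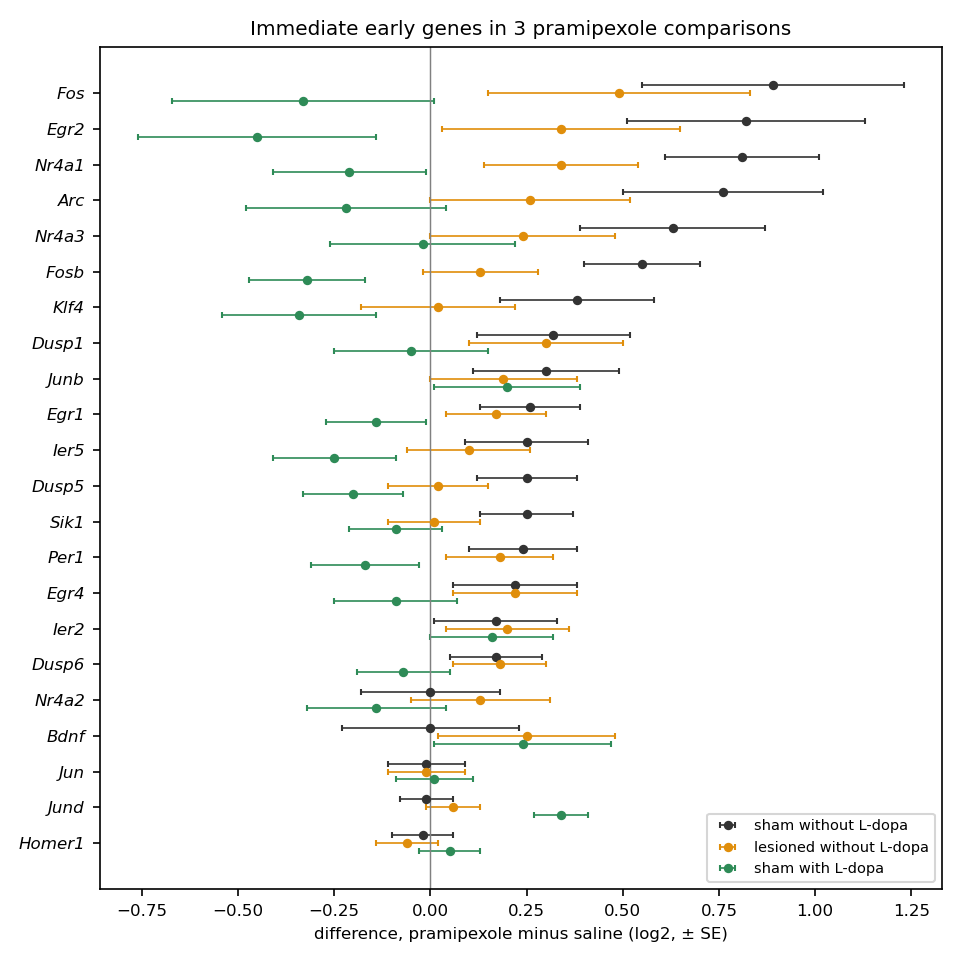
Difference in log2 signal, pramipexole minus saline (± SE), of the 22 immediate early genes in sham rats without L-dopa (black), lesioned rats without L-dopa (orange) and sham rats with L-dopa (green), 7 against 7 rats each. Fos lies at 0.89, 0.49 and -0.33, and Jund at -0.01, 0.06 and 0.34.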

How the data were processed

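Dorsal striatum RNA of each rat (100 ng) was amplified and labelled from the 3' end and measured on 1 Affymetrix Rat230_2 array, per the labels' protocols. The deposited values are log2 signals that the authors made with MAS5, per the submitters' processing notes; its version and scaling target are not given in the sources used here. Unlogged, every array has a 2% trimmed mean of 150.042 to 150.046. The values were used as deposited. Probe sets with a mean above 5 over the 14 arrays were tested, 13650 of them with 1 symbol, 312 with several and 4750 with none; gene numbers matched the rat gene table for 99.67% of symbols.

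All 56 arrays entered 1 limma fit (3.58.1, R 4.3.3) with a mean for each of the 8 groups, tested two-sided after eBayes with Benjamini-Hochberg adjustment over all tested probe sets. The pipeline was tested on simulated data. Rats were not paired, since each number occurs in 1 group. The members and gene lists were chosen with earlier results of these data known. A list member is given by its probe set of highest mean. Named genes are the 10 of smallest p in each direction (5 for each interaction), the 2 of smallest p in each list, the 10 of largest spread and the receptors, peptides and early genes of interest; other names were chosen after their values were seen. The labels give no litter or extraction batch, and 7 arrays a group limit the precision. Alternatives were other samples in the fit, a sample range term, 2 filters, quantile normalization, a variance trend, array weights, an offset of 16, covariates for RNA quality, cortex, choroid plexus and blood, and leaving out each rat.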

Additional observations from a re-analysis of the deposited data

Results flagged for a closer look

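Each group of 7 rats was checked for a rat separated from its nearest neighbour by more than Dixon's 95% critical share of the group's range, a gap that chance gives in about 5% of groups. Of 310 groups of named genes, list scores and RNA quality, 34 (11%) held such a rat. The named genes include those chosen for the largest spread within groups, and of these Car3, Msmp, Plekhh1 and Rsph10b held such a rat. The groups also share the same rats, and list scores are counted beside some of their own members. The 11% therefore cannot be tested against the 5%, and no conclusion is drawn from it. Pramipexole rat 49 accounted for 9 of the 34, pramipexole rat 45 and saline rat 54 for 5 each, and saline rat 50 for 4.

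Pramipexole rat 49 was high for Car3 (7.56, next 5.05), Enpp2 (10.62, next 10.24), Gabra4 (8.47, next 7.78) and Slc16a12 (6.34, next 5.91). It was low for Cpeb4 (8.90, next 9.11), Egr4 (6.90, next 7.71), Nr4a2 (7.06, next 7.94), Plekhh1 (4.48, next 6.18) and the neuropeptide score (-0.245, next 0.052). Pramipexole rat 45 was high for Bpnt2 (8.19, next 8.01), Hbb (10.81, next 10.25) and the blood cell score (0.272, next -0.046), and low for Cfdp1 (8.29, next 8.41) and Wdtc1 (6.00, next 6.33). Of the other pramipexole rats, rat 43 was low for Rsph10b (2.77), rat 47 for Myh1 (9.35) and rat 48 for Msmp (3.47). Rat 44 was high for the dopamine signalling score (0.097) and the endocannabinoid score (0.091).

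Saline rat 54 was high for the glucocorticoid score (0.66, next 0.15), the microglial score (0.455, next 0.042) and Vegfa (8.18, next 7.93), and low for Dusp5 (4.76, next 5.25) and Plekhh1 (4.06, next 6.01). Saline rat 50 was low for Cartpt (6.26, next 7.52), Rfc1 (6.98, next 7.30) and Tef (9.24, next 9.44), and high for Cox5a (6.49, next 6.02). Saline rat 53 was low for Pclo (4.42, next 5.22) and high for Pde4d (8.02, next 7.69). Saline rat 52 was high for Sst (8.27) and the potassium channel score (0.083), rat 51 low for Msmp (3.16) and rat 56 low for Cx3cr1 (4.59).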

How the results depend on the processing

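The count of probe sets called for pramipexole against saline was 0 in each direction under every alternative run except with the cortical score as a covariate. There 1 probe set with no gene symbol was lower, at -0.45 ± 0.08 (adjusted p = 0.0154), against -0.41 and an adjusted p of 0.591 with no covariate. The count at an unadjusted p under 0.05 was 1801 with no filter, where 31042 probe sets were tested, and ranged from 1009 to 1478 when each rat was left out. No probe set was called for the difference from lesioned rats in any alternative. For the difference from sham rats with L-dopa, 2 were lower with quantile normalization (Cox5a at -0.806 and 1 without a symbol, adjusted p = 0.0429) and 1 without rat 49 (Hibadh at -0.316, adjusted p = 0.016), so leaving out a rat gave 0 to 1. The counts at an unadjusted p under 0.05 were 735 with the sample range as a term and 2014 with no filter. The cause of these moves was not tested, apart from the larger number tested with no filter.

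Of 128 named differences, 12 changed sign under some alternative. Most of these were close to 0 with all rats and no covariate. The largest in size were Cmbl at -0.25 ± 0.44 (SE), Rsph10b at 0.241 and Ramac at 0.145. Bdnf gave -0.018 with quantile normalization, -0.006 with array weights, and -0.056, -0.072 and -0.06 with RNA quality, cortex and choroid plexus as covariates. Penk gave -0.003 with quantile normalization, -0.002 with array weights, -0.006 with choroid plexus and -0.017 with blood. Nr4a2 gave -0.056 with cortex and -0.046 with choroid plexus, and Plekhh1 0.005 and 0.051. Drd1 gave -0.01 with RNA quality and -0.026 with blood, Tac1 -0.008 and -0.047, and Jun 0.012 and 0.02, with 0.018 under array weights. Jund gave 0.001 with blood. When each rat was left out, Bdnf ranged from -0.126 to 0.135, Cmbl from -0.618 to 0.069, Drd1 from -0.053 to 0.052, Homer1 from -0.052 to 0.012, Jun from -0.063 to 0.042 and Jund from -0.039 to 0.029. Nr4a2 ranged from -0.067 to 0.154, Penk from -0.022 to 0.039, Plekhh1 from -0.423 to 0.321, Ramac from -0.24 to 0.519, Rsph10b from -0.152 to 0.656 and Tac1 from -0.071 to 0.078. No paired analysis was possible because no rat number occurs in more than 1 group.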
